A study of Mus musculus with 18 samples.

Results

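The genes described here are 10 markers of liver macrophages. Clec4f, Timd4 and Vsig4 mark resident Kupffer cells. Cd163 and Marco are scavenger receptors, and Cd5l is a secreted scavenger protein. Adgre1 and Cd68 are general macrophage genes, and Itgax and Ccl2 are associated with recruited macrophages. All 10 were taken from a fixed list of names, and each was represented by its RefSeq transcript row of highest mean level. Of the 23521 genes that could be named in the table, 10356 reached 1 RPKM (read number scaled to transcript length and to the mapped reads of the library) in at least 3 libraries and were tested. A row could be named for 9 of the 10 markers, and all 9 were among the genes tested. Cd68 was not analysed here.

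The measurements are polyA RNA sequencing of the livers of C57BL/6J mice, all wild type, 3 libraries in each of 6 groups, 18 in all. The groups were HF+CR, HF+Ex, HF, LF+CR, LF+Ex and LF. HF and LF name diets and CR and Ex treatments, which the labels abbreviate; they are taken to mean high-fat, low-fat, caloric restriction and exercise, as is usual in such work. The regimens began when the mice were 5 weeks old, and livers were taken at 62 weeks. The labels state neither sex nor whether each library is 1 animal, so each p-value reflects the spread among these libraries, which may be technical. In whole liver, fewer cells of a type and less RNA per cell cannot be told apart.

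Kupffer cells are the macrophages that live in the liver sinusoids, where they clear particles, aged red cells and lipoproteins from the blood. In the mouse they are set apart from other macrophages by the lectin receptor Clec4f, by the phosphatidylserine receptor Timd4 and by the complement receptor Vsig4. When resident cells are lost or the liver is injured, monocytes enter from the blood, drawn in part by the chemokine Ccl2, and those that stay can take on Clec4f before they take on Timd4. Itgax encodes CD11c, an integrin chain found on dendritic cells and on macrophages of fatty tissue.

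The libraries resembled liver and differed in a few ways that bear on the markers. The hepatocyte genes Apoa1 and Ttr lay between 5638 and 13320 RPKM and between 4393 and 7194 RPKM, but Alb was listed at 0 in 14 libraries and at 30395 to 33218 RPKM in HF 1 and the 3 HF+Ex libraries. A 0 in this table can therefore be a failed estimate, and no mean is given for a group in which a marker is at 0 or in effect at 0. HF+CR 3 and LF 2 stood apart in the summed level of 8 bile duct genes, at 174.1 and 150.4 RPKM, while no other library passed 79.9 RPKM. The pancreas list came to 359.3 RPKM for HF+CR 1 and 1849 RPKM for LF+CR 1, and to 40.5 RPKM or less in the others. From the steps between low values the depth was estimated at 21700000 to 41300000 reads per library. At those depths 1 RPKM stood for about 87.8 to 167.1 reads of Itgax and 17.6 to 33.6 reads of Ccl2.

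Promoter sequence was available from RefSeq (GRCm38.p6) for 8 of the 10 markers, all but Adgre1 and Ccl2. The 250 bases before the start site are shown for Cd5l and Itgax, which were higher on the HF diets, for Cd163, which was lower, and for Marco, whose difference did not pass. They lie at chr3:87357631-87357880 (plus strand), chr7:128129300-128129549 (plus), chr6:124304401-124304650 (plus) and chr1:120505025-120505274 (minus). Capitals mark a match, on either strand, to GAGGAAG (the core of a site for the macrophage factor PU.1), TGACTCA (AP-1) or TGCTGA (the core that begins a site for MAF factors).
Cd5l: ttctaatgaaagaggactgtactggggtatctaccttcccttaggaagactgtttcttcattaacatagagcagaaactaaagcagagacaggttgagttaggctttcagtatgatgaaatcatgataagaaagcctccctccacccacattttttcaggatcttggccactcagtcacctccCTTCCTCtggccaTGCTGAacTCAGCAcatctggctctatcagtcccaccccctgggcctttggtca
Itgax: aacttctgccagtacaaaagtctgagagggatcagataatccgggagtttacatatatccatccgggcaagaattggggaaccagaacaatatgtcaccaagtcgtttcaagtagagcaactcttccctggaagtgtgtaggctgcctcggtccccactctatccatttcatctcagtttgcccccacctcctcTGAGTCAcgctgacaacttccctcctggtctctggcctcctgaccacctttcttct
Cd163: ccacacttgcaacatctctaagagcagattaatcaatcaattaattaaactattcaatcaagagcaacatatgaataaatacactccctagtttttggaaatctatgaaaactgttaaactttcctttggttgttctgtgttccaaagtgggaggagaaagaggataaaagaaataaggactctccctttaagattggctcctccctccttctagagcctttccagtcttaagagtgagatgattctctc
Marco: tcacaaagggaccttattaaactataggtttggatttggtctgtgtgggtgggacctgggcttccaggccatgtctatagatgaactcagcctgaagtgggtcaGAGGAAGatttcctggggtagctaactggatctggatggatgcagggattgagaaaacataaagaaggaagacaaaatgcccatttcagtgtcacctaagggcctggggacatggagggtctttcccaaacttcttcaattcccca
In windows that also hold the 50 bases after the start, the PU.1 core was found in 2 of the 8 markers (Cd5l and Marco) and in 13.6% of all 32851 windows. The AP-1 letters were found in 2 (Cd68 and Itgax) and in 5.2% of all windows. The MAF core was found in 4 (Cd5l, Clec4f, Timd4 and Vsig4) and in 19.5% of all windows. Cd5l carried a pair of MAF cores on opposite strands, whose first letters lie at positions -54 and -46 from the start, beside a PU.1 core at -67. Cd163 held none of these letters in its window. The matches do not overlap, and they describe letters only.

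Per unit length, the most abundant marker was Cd5l, with a mean of 69.2 RPKM over the 18 libraries, followed by Clec4f at 33.8, Vsig4 at 12.5, Adgre1 at 5.21 and Marco at 4.0 RPKM. Ccl2, Cd163 and Timd4 averaged 1.33, 1.303 and 1.28 RPKM, levels that their spread does not separate, and Itgax averaged 0.686 RPKM. Adgre1 and Marco were likewise within each other's spread. Itgax reached 1 RPKM in 6 libraries, Ccl2 in 8, and Timd4 and Cd163 in 11 each.

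Clec4f, the defining lectin receptor of mouse Kupffer cells, passed no test between groups. It measured 37.7, 35.4 and 27.2 RPKM in HF+CR livers, 35.9, 43.0 and 35.0 RPKM in HF+Ex livers and 29.6, 61.8 and 33.2 RPKM in HF livers. In the low-fat groups it measured 18.1, 26.0 and 28.02 RPKM with CR, 33.2, 28.05 and 37.7 RPKM with Ex and 36.3, 37.9 and 25.0 RPKM in LF livers. LF+CR livers lay below all HF+Ex, HF and LF+Ex livers, the other groups overlapped, and HF 2 was the highest library.

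Vsig4, the complement receptor that captures opsonised bacteria, ran between 4.29 RPKM in HF 1 and 28.1 RPKM in HF 2. Its mean was 13.2 ± 1.77 RPKM with HF+CR, 10.7 ± 6.97 with HF+Ex and 15.5 ± 11.9 with HF, against 9.92 ± 1.91 with LF+CR, 11.5 ± 2.53 with LF+Ex and 14.1 ± 3.32 RPKM with LF (SD, n = 3 each). The spread was several times wider in HF and HF+Ex livers, where HF 1, HF+Ex 1 and HF+Ex 3 were low (4.29, 7.85 and 5.59 RPKM) and HF 2 and HF+Ex 2 were high (28.1 and 18.6 RPKM).

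Timd4, a receptor for dying cells carried by long-lived Kupffer cells, measured 2.52, 1.74 and 0.31 RPKM in HF+CR livers and 0.39, 1.05 and 0.42 RPKM in HF+Ex livers. HF livers held 2.20 and 0.75 RPKM in replicates 2 and 3, and HF 1 was in effect at 0, with a listed value of 1.45e-17 RPKM. It averaged 1.56 ± 0.64 RPKM in LF+CR, 1.47 ± 0.34 in LF+Ex and 1.51 ± 0.48 in LF livers (SD, n = 3 each). All 9 low-fat libraries lay between 0.909 and 2.19 RPKM, whereas 5 of the 9 high-fat libraries lay under 0.909 RPKM. As a share of the Clec4f level, Timd4 was 1.08%, 2.45% and 1.21% in HF+Ex livers against 3.48%, 5.08% and 4.86% in LF+Ex livers, without overlap; this ratio was chosen after its values were seen and was not tested.

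Cd5l, a scavenger protein secreted by macrophages that inhibits apoptosis and lipid synthesis, measured 55.1, 53.8 and 70.4 RPKM in HF+CR livers against 26.1, 34.03 and 45.5 RPKM in LF+CR livers. It measured 129.2, 101.7 and 110.4 RPKM in HF+Ex livers against 42.5, 42.6 and 61.3 RPKM in LF+Ex livers, and 86.9, 155.5 and 60.5 RPKM in HF livers against 57.5, 75.5 and 36.4 RPKM in LF livers. The first and second of these pairs of groups did not overlap, and the third did. Relative to Clec4f, Cd5l stood at 3.59, 2.36 and 3.16 times its level in HF+Ex livers and at 1.28, 1.52 and 1.63 times in LF+Ex livers, a ratio also chosen after its values were seen.

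Cd163, the receptor that clears haemoglobin bound to haptoglobin, showed the reverse pattern. It measured 2.54, 1.79 and 0.117 RPKM in HF+CR livers, 0.0303, 0.919 and 0.00871 RPKM in HF+Ex livers and 0.0540, 0.0513 and 0.264 RPKM in HF livers. All 9 low-fat libraries lay between 1.04 and 2.93 RPKM, with means of 2.10 ± 0.96 in LF+CR, 1.97 ± 0.14 in LF+Ex and 1.82 ± 0.52 RPKM in LF livers (SD, n = 3 each). The 7 libraries under 1 RPKM were the 3 of HF, the 3 of HF+Ex and HF+CR 3. A second Cd163 transcript row did not make up the difference: both rows together came to 0.0540, 0.0513 and 0.823 RPKM in HF livers and 0.0303, 0.961 and 0.00871 RPKM in HF+Ex livers, and to at least 1.78 RPKM in each low-fat library.

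Marco, a collagen-like receptor for unopsonised particles, measured 0.341, 2.94 and 0.153 RPKM in HF+Ex livers and 0.147, 2.67 and 2.41 RPKM in HF livers. HF+CR livers averaged 4.04 ± 1.38 RPKM, against 4.33 ± 1.49 RPKM in LF+CR livers, and LF+Ex livers averaged 3.65 ± 1.32 RPKM (SD, n = 3 each). LF livers held 2.03, 20.6 and 4.63 RPKM, the high value in LF 2. That library also held the highest S100a8 level, 22.1 RPKM, against a median of 2.61 RPKM over all libraries; S100a8 marks neutrophils, and its part in the Marco value was not tested. HF 1, HF+Ex 1 and HF+Ex 3 were the libraries lowest in Marco and were also low in Vsig4, Timd4 and Cd163, although not in Cd5l or Adgre1. All of them carried an Alb estimate above 0, as did only HF+Ex 2 besides, which held 2.94 RPKM of Marco. Whether that library difference bears on these markers was not tested.

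Adgre1, which encodes the macrophage surface antigen F4/80, measured 5.01, 4.06 and 6.92 RPKM in HF+CR livers against 1.58, 2.99 and 3.18 RPKM in LF+CR livers. It measured 7.60, 7.37 and 7.07 RPKM in HF+Ex livers against 2.84, 2.99 and 4.62 RPKM in LF+Ex livers, and 6.08, 11.7 and 5.55 RPKM in HF livers against 4.92, 6.13 and 3.27 RPKM in LF livers. The first and second pairs of groups did not overlap; HF and LF livers did, through LF 2.

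Itgax was low throughout and separated the libraries into those above 0.5 RPKM, 8 in number, and 10 below it. It measured 1.76, 1.44 and 1.43 RPKM in HF+Ex livers against 0.0531, 0.109 and 0.126 RPKM in LF+Ex livers, and 0.926, 1.79 and 0.662 RPKM in HF livers against 0.223, 1.01 and 0.0568 RPKM in LF livers. HF+CR livers held 0.201, 0.132 and 2.04 RPKM against 0.0893, 0.132 and 0.160 RPKM in LF+CR livers. The high values outside HF and HF+Ex belonged to HF+CR 3 and LF 2, the libraries with the high bile duct and stellate sums. Itgax is also a dendritic cell gene. None of the 10 genes of a dendritic list passed the filter. The list summed to 1.28 to 3.81 RPKM in HF+CR livers, 1.399 to 2.19 in HF+Ex livers and 1.97 to 3.09 in HF livers, against 0.981 to 1.12 in LF+CR livers, 1.03 to 1.501 in LF+Ex livers and 0.721 to 2.06 RPKM in LF livers. Its highest sum was in HF+CR 3, which also had the highest Itgax level. Of the defining dendritic genes Flt3, Siglech and Xcr1 stayed at or under 0.363 RPKM in every library, and Zbtb46 and Clec9a reached at most 1.12 and 1.25 RPKM. Clec9a measured 1.25, 0.199 and 0.871 RPKM in HF livers and was listed at 0 in all LF livers, and it measured 0.558, 0.287 and 0.213 RPKM in HF+Ex livers against 0, 0.493 and 0.496 RPKM in LF+Ex livers. HF+CR livers held 0, 0.445 and 0.832 RPKM of it, against 0.433, 0.291 and 0.218 RPKM in LF+CR livers. The part of dendritic cells in the Itgax values was not tested.

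Ccl2, the chemokine that draws monocytes from the blood, was listed at 0 in 2 libraries of each low-fat group. It measured 0.401, 0.452 and 2.56 RPKM in HF+CR livers, 4.48, 2.58 and 2.69 RPKM in HF+Ex livers and 1.42, 4.97 and 1.37 RPKM in HF livers. The low-fat libraries above 0 were LF+CR 1 at 0.0465, LF+Ex 3 at 0.263 and LF 2 at 2.64 RPKM. HF+CR and LF+CR livers did not overlap, nor did HF+Ex and LF+Ex livers, whereas LF 2 reached into the HF range.

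**Figure D1:**
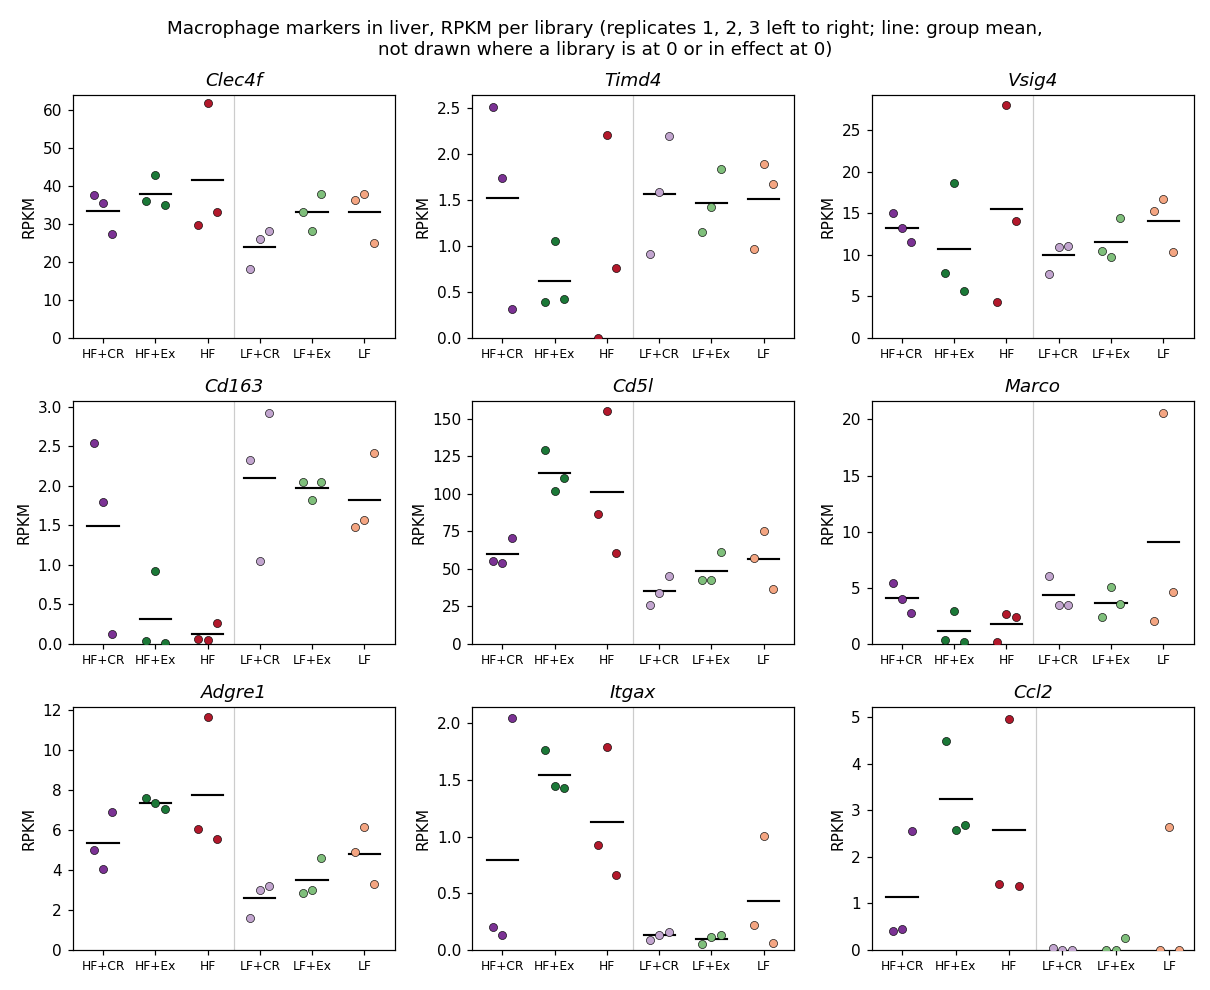
RPKM of the 9 markers with a row in each of 18 liver libraries, 3 per group; the line is the group mean and is left out where a library is at 0 or in effect at 0, and each vertical axis starts at 0. Cd5l and Adgre1 lay higher in the HF groups (left of the grey line), Itgax and Ccl2 were high in all HF+Ex and HF libraries and otherwise in HF+CR 3 and LF 2, and Cd163 was under 1 RPKM in 7 HF-diet libraries.

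Whether the long high-fat diet shifted the markers was first asked over both diets, with 9 libraries on each side. Cd5l, Adgre1, Itgax and Ccl2 rose and Cd163 fell on the HF diets. The difference in log2(RPKM + 1) was 0.92 ± 0.18 (SE) for Cd5l (adjusted p = 0.00265, limma with Benjamini-Hochberg adjustment over 10356 genes), with medians of 86.9 RPKM on the HF diets and 42.6 RPKM on the LF diets. It was 0.77 ± 0.15 for Adgre1 (adjusted p = 0.00317), with medians of 6.92 RPKM on the HF diets and 3.18 RPKM on the LF diets. Itgax differed by 0.77 ± 0.18 (adjusted p = 0.00787), with medians of 1.43 RPKM on the HF diets and 0.126 RPKM on the LF diets. Ccl2 differed by 1.32 ± 0.27 (adjusted p = 0.00393), and its median was 2.56 RPKM on the HF diets, against 0 on the LF diets. It was listed at 0 in 2 libraries of each low-fat group. Those may be failed estimates, and this difference rests partly on them. Cd163 differed by -0.99 ± 0.21 (adjusted p = 0.00401), with medians of 0.117 RPKM on the HF diets and 2.05 RPKM on the LF diets. Because of the added 1 RPKM these differences understate the change of the low genes. Except in LF 2, Itgax and Ccl2 reached 1 RPKM on the HF diets only, so their tests are not independent of the filter.

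Marco, Clec4f, Timd4 and Vsig4 did not pass over both diets, whereas Cd5l and Cd163, also on the resident list read below, did. The difference was -0.98 ± 0.36 for Marco (adjusted p = 0.0591), 0.31 ± 0.14 for Clec4f (adjusted p = 0.120), -0.40 for Timd4 (95% interval -0.88 to 0.07) and -0.01 for Vsig4 (95% interval -0.58 to 0.57). Marco passed under 2 other scalings of the libraries, with adjusted p = 0.0475 and 0.0368, and without LF 1 (adjusted p = 0.0234) or HF+Ex 2 (adjusted p = 0.0297). In all, 5 of 9 markers passed, where 23.7% of all genes tested did; 4 of the markers were higher and 1 lower, as were 14% and 9.69% of all genes. Without HF+CR 3 and LF 2 the count was also 5. No marker separated the 9 HF-diet libraries from the 9 LF-diet libraries without overlap; 0.695% of all genes did. Without the Ex groups, an alternative added after the data were seen, none of the 9 passed on 6 libraries a side; the differences were then 0.78 for Cd5l, 0.70 for Adgre1, 0.55 for Itgax, 1.004 for Ccl2 and -0.87 for Cd163, with adjusted p between 0.0557 and 0.186. With HF 1 left out as well, so that every library had Alb listed at 0, they were 0.80, 0.76, 0.58, 1.11 and -0.85, and again none passed.

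The diet difference was then taken within each treatment, in comparisons that share no libraries with each other. Among mice given Ex, Cd5l, Itgax and Ccl2 rose on the HF diet. HF+Ex minus LF+Ex was 1.22 ± 0.31 for Cd5l (adjusted p = 0.0370), 1.21 ± 0.32 for Itgax (adjusted p = 0.0395) and 1.95 ± 0.47 for Ccl2 (adjusted p = 0.0317). Adgre1 at 0.92 ± 0.27 and Cd163 at -1.24 ± 0.36 did not pass (adjusted p = 0.0574 and 0.0568). Cd163 passed under both other scalings (adjusted p = 0.0424 and 0.0380), with only these groups in the fit (adjusted p = 0.0283) and with its transcript rows summed, where the difference was -1.98 (adjusted p = 0.0207). Adgre1 passed with only these groups in the fit (adjusted p = 0.0174). Without HF+CR 3 and LF 2 both passed, at adjusted p = 0.0112 for Cd163 and 0.0328 for Adgre1. The remaining markers differed by -1.31 (Marco) to 0.20 (Clec4f). Thus 3 of 9 passed, all higher, where 5.15% of all genes did and 4.13% were higher. Of these markers, Itgax and Ccl2 had met the filter through HF-diet libraries, HF+Ex among them. The Ccl2 difference also rests on 2 LF+Ex libraries listed at 0, which may be failed estimates. The groups did not overlap for 6 of 9 markers, 4 higher and 2 lower, and for 30.9% of all genes, 24.2% higher and 6.67% lower. These calls were close to the threshold. None passed when LF+Ex 1, LF+Ex 2, HF+Ex 1, HF+Ex 2 or HF+Ex 3 was left out, with differences of 1.12 to 1.29 for Cd5l, 1.15 to 1.25 for Itgax and 1.75 to 2.06 for Ccl2, and 5 passed when HF+CR 3 was left out. Shares of all genes passing in these smaller fits are not given here. All 3 HF+Ex libraries, and none of LF+Ex, carried an Alb estimate above 0, so that difference between the libraries and the diet cannot be told apart here.

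Without either treatment, 0 of 9 markers passed in limma, where 0.406% of all genes did, and 5 reached an unadjusted p under 0.05, where 16.8% of all genes did. HF minus LF was -1.32 ± 0.36 for Cd163 (adjusted p = 0.0958), the only marker whose HF and LF livers did not overlap; 18.8% of all genes did not. It was 0.78 ± 0.31 for Cd5l, 0.57 ± 0.27 for Adgre1, 1.08 ± 0.47 for Ccl2 and -1.56 ± 0.62 for Marco, with adjusted p of 0.220, 0.296, 0.263 and 0.223. Itgax, Clec4f, Timd4 and Vsig4 differed by -0.48 to 0.60. With LF 2 and HF+CR 3 left out, 3 markers passed, among them Ccl2 at 1.70 (adjusted p = 0.0270) and Cd163 at -1.38 (adjusted p = 0.0381). The share of all genes passing in that fit is not given here, so whether this gain is particular to the markers cannot be told. Cd163 also passed without HF+CR 3 alone (adjusted p = 0.0357), a library that enters this comparison only through the estimate of spread.

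Under CR, 0 of 9 markers passed in limma, where 9.78% of all genes did, and 2 reached an unadjusted p under 0.05, where 26.3% of all genes did. HF+CR minus LF+CR was 0.83 ± 0.27 for Adgre1 (adjusted p = 0.0612) and 0.77 ± 0.31 for Cd5l (adjusted p = 0.126). Adgre1 passed under both other scalings, with adjusted p = 0.0411 and 0.0445, and without HF 2 (adjusted p = 0.0339). The other markers differed by -0.42 (Cd163) to 0.93 (Ccl2). In 4 of 9 markers all HF+CR livers lay above all LF+CR livers, where 15.6% of all genes did so.

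**Figure D2:**
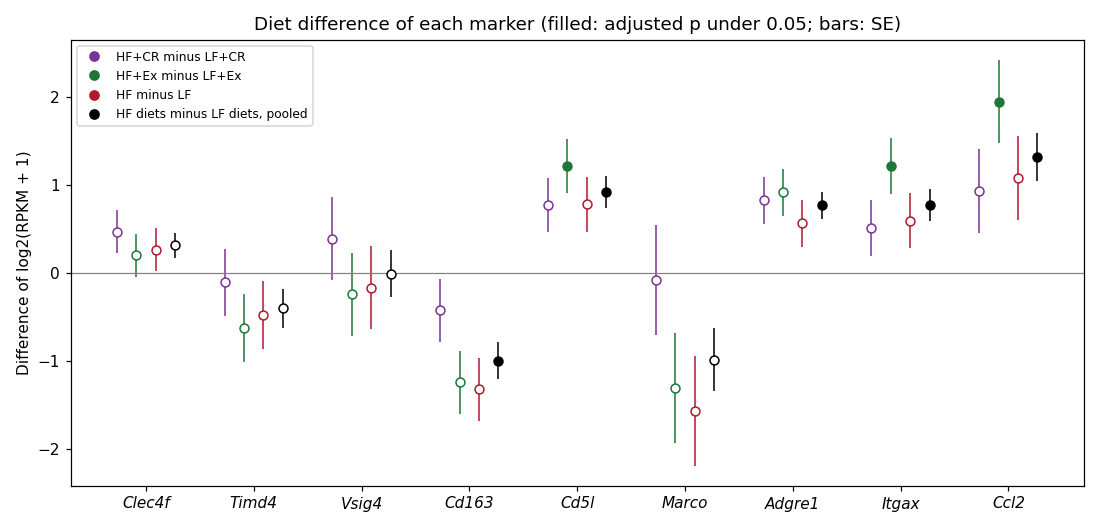
Difference of log2(RPKM + 1) between diets for each marker with its SE, for HF+CR minus LF+CR, HF+Ex minus LF+Ex, HF minus LF (3 libraries a group) and all HF minus all LF diets (9 a side); filled points have an adjusted p under 0.05. Cd5l, Adgre1, Itgax and Ccl2 lie above 0 in all 4 comparisons and Cd163 and Marco below 0, while Clec4f, Timd4, Vsig4 and Marco have no filled point.

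CR and Ex were also compared with no treatment on the same diet. These comparisons share their HF or LF livers with the diet comparison. HF+CR minus HF was 0.99 ± 0.36 for Cd163 (adjusted p = 0.203), and the other markers differed by -0.75 (Ccl2) to 1.02 (Marco); 0 of 9 passed in limma, where 1.4% of all genes did, and Cd163 alone had an unadjusted p under 0.05, as did 14% of all genes. The Cd163 difference depended on HF+CR 3, which held 0.117 RPKM against 2.54 and 1.79 RPKM in the other HF+CR livers: without it the difference was 1.49 (adjusted p = 0.0139). LF+CR minus LF was -0.69 ± 0.27 for Adgre1 (adjusted p = 0.139) and -0.64 to 0.10 for the others; 0 of 9 passed, where 6.5% of all genes did, and 1 had an unadjusted p under 0.05, as did 22.4% of all genes. Over both diets CR minus no treatment was -0.65 ± 0.22 for Cd5l (adjusted p = 0.0847), -0.56 ± 0.19 for Adgre1 (adjusted p = 0.0825) and 0.55 ± 0.25 for Cd163 (adjusted p = 0.1996). No marker passed there, where 7.18% of all genes did, and 3 had an unadjusted p under 0.05, as did 24.2% of all genes. The count was 2 without LF 3, where Cd5l and Adgre1 passed, 1 without HF 3, where Cd5l passed, and 2 without HF+CR 3, Cd163 among them (0.80, adjusted p = 0.0227). Shares of all genes passing with those libraries left out are not given here.

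Between Ex and no treatment no marker passed. HF+Ex minus HF ran from -0.41 to 0.36, LF+Ex minus LF from -0.67 to 0.09, and Ex minus no treatment over both diets from -0.54 to 0.13. In none of these did a marker reach an unadjusted p under 0.05, where 3.64%, 9.12% and 7.04% of all genes did, and limma called 0% of all genes. LF+Ex minus LF had a median of -0.13 over all genes. Over both diets the 95% interval of the Ex difference was -0.41 to 0.52 for Cd5l and -0.49 to 0.46 for Itgax, so smaller effects could not be detected. The test of whether CR or Ex acted differently on the 2 diets called no marker: 0 had an unadjusted p under 0.05, where 11.8% of all genes did for CR and 5.07% for Ex, and 1.02% of all genes passed for CR and 0% for Ex.

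Lists of genes of the same cells, chosen with earlier results of these data known, were read in the same fits. They hold the markers too, 6 of them on the resident list and 1 tested marker each on the pan-macrophage, monocyte and chemokine lists, so their counts partly repeat the results above. Over both diets, 18 of 23 tested pan-macrophage genes rose and none fell, where 14% of all genes rose and 9.69% fell. The median difference of the pan-macrophage genes was 0.77, beside 0.02 for all genes. They included Cd53, a leukocyte tetraspanin (2.43 ± 0.84 RPKM on the HF diets and 0.99 ± 0.44 RPKM on the LF diets, SD, n = 9 each; adjusted p = 0.00152), and Cybb, the core of the phagocyte oxidase (4.49 ± 1.63 RPKM on the HF diets and 1.85 ± 0.92 RPKM on the LF diets; adjusted p = 0.00195). Of the 16 monocyte and recruited macrophage genes 8 were tested and 7 of these rose, with a median of 0.77. Among them were Cd44, a hyaluronan receptor (2.11 ± 0.72 RPKM on the HF diets and 0.81 ± 0.30 RPKM on the LF diets; adjusted p = 0.00139), and Cd52 (28.1 ± 11.6 RPKM on the HF diets and 10.1 ± 4.37 RPKM on the LF diets; adjusted p = 0.00182). Of the 21 chemokine and receptor genes 13 were tested and 10 of these rose, with a median of 0.89. They included the neutrophil attractant Cxcl1 (11.2 ± 4.45 RPKM on the HF diets and 3.61 ± 1.299 RPKM on the LF diets, adjusted p = 0.000268). The interferon-induced Cxcl9 rose too (8.13 ± 4.42 RPKM on the HF diets and 1.83 ± 0.72 RPKM on the LF diets, adjusted p = 0.000282). The filter of 1 RPKM in 3 libraries can be met on the HF diets alone. Shares of tested genes that rose, here and in the lists below, can therefore lean towards genes high on those diets.

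Of the resident Kupffer cell list 4 of 18 tested genes rose and 1 fell, with a median of 0.05. Of all genes 14% rose and 9.69% fell, and the small counts in this paragraph were not tested against those shares. Cd163 was the gene that fell, and Cd5l, Cd38 and the complement gene C6 were among those that rose; Cd38 averaged 3.75 ± 0.74 RPKM on the HF diets and 2.83 ± 0.41 RPKM on the LF diets (SD, n = 9 each; adjusted p = 0.0198). In the list of lipid-associated macrophage genes 6 of 15 rose and 1 fell, with a median of 0.59. The fatty acid carrier Fabp4 rose (25.4 ± 10.2 RPKM on the HF diets and 11.8 ± 3.02 RPKM on the LF diets; adjusted p = 0.000675), as did the elastase Mmp12 (2.77 ± 1.95 RPKM on the HF diets and 0.30 ± 0.48 RPKM on the LF diets; adjusted p = 0.00479). Fabp5, a related carrier that hepatocytes also make, was the one that fell (16.2 ± 13.04 RPKM on the HF diets and 101.5 ± 102.5 RPKM on the LF diets; adjusted p = 0.000346). Of the inflammatory genes 3 of 12 rose and 1 fell, with a median of 0.36; Tgfb1 rose (adjusted p = 0.0101) and Arg1, a urea cycle enzyme in hepatocytes, fell (adjusted p = 0.0141).

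Between HF+Ex and LF+Ex livers 7 of 23 pan-macrophage genes rose, with a median of 1.16 beside 0.08 for all genes, as did 3 of 8 monocyte genes, 5 of 13 chemokine and receptor genes, 3 of 15 lipid-associated genes and 2 of 18 resident genes. None of these genes fell. Of all genes tested, 4.13% rose between HF+Ex and LF+Ex livers. The resident genes were Cd5l and Cd207, a lectin also called langerin (4.38 ± 1.13 RPKM in HF+Ex livers and 1.68 ± 0.64 RPKM in LF+Ex livers, SD, n = 3 each; adjusted p = 0.0478). Spi1, which encodes PU.1, stood at 8.23 ± 0.76 RPKM in HF+Ex livers and 2.46 ± 0.42 RPKM in LF+Ex livers (adjusted p = 0.0313).

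Genes of other cells moved alongside. Over both diets 4 of 10 stellate cell genes rose, among them Col3a1 (10.6 ± 6.89 RPKM on the HF diets and 3.80 ± 2.98 RPKM on the LF diets, SD, n = 9 each; adjusted p = 0.00884), as did 2 of 3 B cell genes, the neutrophil gene S100a8 of 2 tested and Nkg7, the only T and NK cell gene tested. The summed level of 12 T and NK cell genes was 1.31 to 4.03 RPKM in HF+CR, 1.22 to 5.21 in HF+Ex and 2.20 to 3.96 in HF livers, against 0.808 to 1.15 in LF+CR, 0.400 to 0.656 in LF+Ex and 0.268 to 4.06 RPKM in LF livers. Of 12 sinusoidal endothelial genes 1 rose and 1 fell, and of 5 bile duct genes 1 rose, Krt23. Over both diets 14% of all genes rose and 9.69% fell. Of 10 hepatocyte genes 3 fell over both diets, Hnf4a, Cps1 and Fgb, and the 1 that rose was Alb, which was listed at 0 in 14 libraries; the list's median was -0.06. Between HF+Ex and LF+Ex livers 4 hepatocyte genes fell and Alb rose, with a median of -0.42. Of all genes 5.15% passed there and 4.13% rose. Hnf4a, a transcription factor of hepatocytes, averaged 121.2 ± 16.4 RPKM in HF+Ex livers and 176.1 ± 24.7 RPKM in LF+Ex livers (SD, n = 3 each; adjusted p = 0.0257). The 16 monocyte and recruited macrophage genes summed to 25.1 to 88.5 RPKM in HF+CR, 63.5 to 84.6 in HF+Ex and 46.3 to 96.9 in HF livers, against 17.7 to 23.0 in LF+CR, 20.5 to 27.7 in LF+Ex and 15.1 to 64.4 RPKM in LF livers. The blood monocyte genes Ly6c2 and Ccr2 themselves stayed at or under 2.08 and 1.23 RPKM in every library and did not pass the filter. Ccr2 measured 1.11, 0.972 and 0.737 RPKM in HF+Ex livers against 0.0505, 0.0859 and 0.172 RPKM in LF+Ex livers, without overlap. HF+CR livers held 0.412, 0.247 and 1.23 RPKM of it against 0.124, 0.115 and 0.203 RPKM in LF+CR livers, also without overlap. Its HF and LF livers overlapped, and Ly6c2 overlapped between the diets in every such pair of groups. The part of other cell types in the marker differences was not tested.

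**Figure D3:**
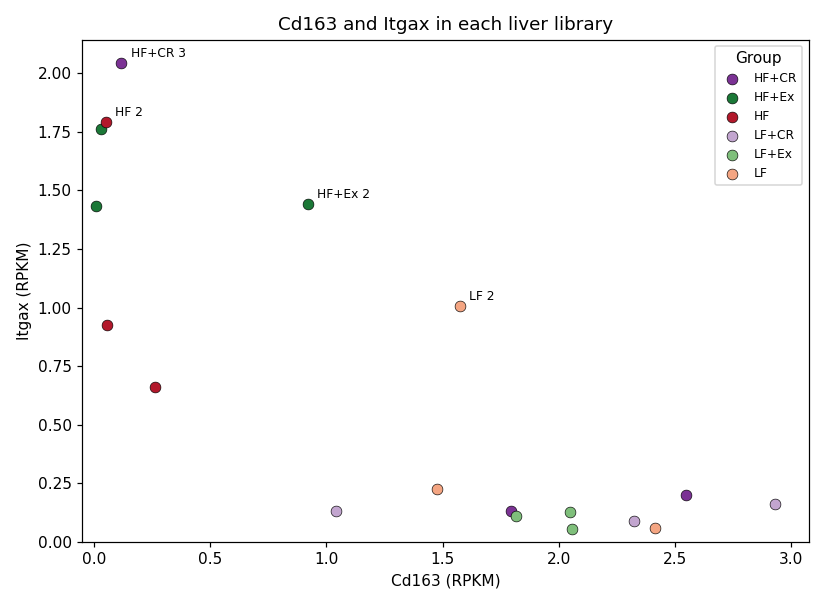
Itgax against Cd163, both in RPKM, in each of 18 libraries, coloured by group. The 7 libraries with Cd163 under 1 RPKM all had Itgax above 0.5 RPKM, and of the 11 others only LF 2, at 1.01 RPKM, did.

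How the markers moved together was read over the 18 libraries, in 36 pairs of log2(RPKM + 1) values. A correlation on levels mixes differences between groups with differences within them, so deviations from the group means, permuted within groups, are given beside it. Cd163 and Itgax fall largely into high and low libraries, as the plot of these genes shows. Cd163 has no gap at 1 RPKM, with 0.919 RPKM in HF+Ex 2 and 1.04 RPKM in LF+CR 2. Ccl2, listed at 0 in 2 libraries of each low-fat group, has a similar limit on levels. For pairs with Cd163 or Itgax no correlation on levels is given here. Of the other 21 pairs 10 correlated on levels (adjusted p under 0.05 over 36 pairs, 100000 permutations), all positively. Within groups 9 of the 36 pairs did, again all positively. The 2 sets described next were drawn from these 9 pairs, so they describe the pairs and are no further result.

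One set of markers was Cd5l, Adgre1, Itgax and Ccl2. Cd5l and Adgre1 were the closest (Pearson r = 0.96, Spearman rho = 0.96, permutation p = 1e-05 for each, the smallest that can be given, adjusted p = 6e-05). Their r was 0.93 without the 2 libraries farthest from the median and 0.93 within groups (adjusted p = 0.0009, permutation test). Cd5l and Ccl2 had r = 0.90 and rho = 0.89 (permutation p = 1e-05 for each, adjusted p = 6e-05), 0.90 without the 2 farthest libraries and 0.74 within groups (adjusted p = 0.0188, permutation test). Within groups Itgax and Ccl2 had r = 0.90 (adjusted p = 0.0194, permutation test) and Adgre1 and Itgax r = 0.72 (adjusted p = 0.00036, permutation test). LF 2 and HF+CR 3, the libraries with the high bile duct and stellate sums, were the highest of their groups in every gene of this set. They held 1.01 and 2.04 RPKM of Itgax and 2.64 and 2.56 RPKM of Ccl2. The coefficients within groups were not computed without them, so how far these rest on those libraries was not tested.

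A second set was Clec4f, Vsig4 and Timd4, although Clec4f also went with the first. On levels Clec4f had r = 0.80 and rho = 0.63 with Adgre1 (permutation p = 0.00015 and 0.00629, adjusted p = 0.000576 for r) and r = 0.78 and rho = 0.69 with Cd5l (permutation p = 4e-05 and 0.002, adjusted p = 0.000206 for r). Without HF 2 and LF+CR 1 these r were 0.54 and 0.59, and within groups they were 0.72 and 0.71, which did not pass (adjusted p = 0.0804 and 0.106, permutation tests). With Ccl2 it had r = 0.58 and rho = 0.55 (permutation p = 0.00878 and 0.0203, adjusted p = 0.0176 for r), 0.40 without the same 2 libraries and 0.34 within groups (adjusted p = 0.495, permutation test). Within the second set and within groups r was 0.80 for Clec4f and Vsig4, 0.76 for Timd4 and Vsig4 and 0.77 for Clec4f and Timd4 (adjusted p = 0.00036, 0.0188 and 0.0297, permutation tests). On levels Clec4f and Vsig4 had r = 0.63 and rho = 0.70 (permutation p = 0.00633 and 0.00164, adjusted p = 0.0134 for r), but r = 0.42 without HF 2 and LF+CR 1, so it rested partly on those libraries. Timd4 and Marco had r = 0.70 and rho = 0.62 on levels (permutation p = 0.00087 and 0.00722, adjusted p = 0.00241 for r), 0.67 without HF 1 and HF+CR 3 and 0.58 within groups (adjusted p = 0.0536, permutation test). Cd163 had negative coefficients within groups with Itgax (-0.68), Ccl2 (-0.49), Adgre1 (-0.39) and Cd5l (-0.32), none of which passed (adjusted p = 0.103, 0.176, 0.260 and 0.186, permutation tests).

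**Figure D4:**
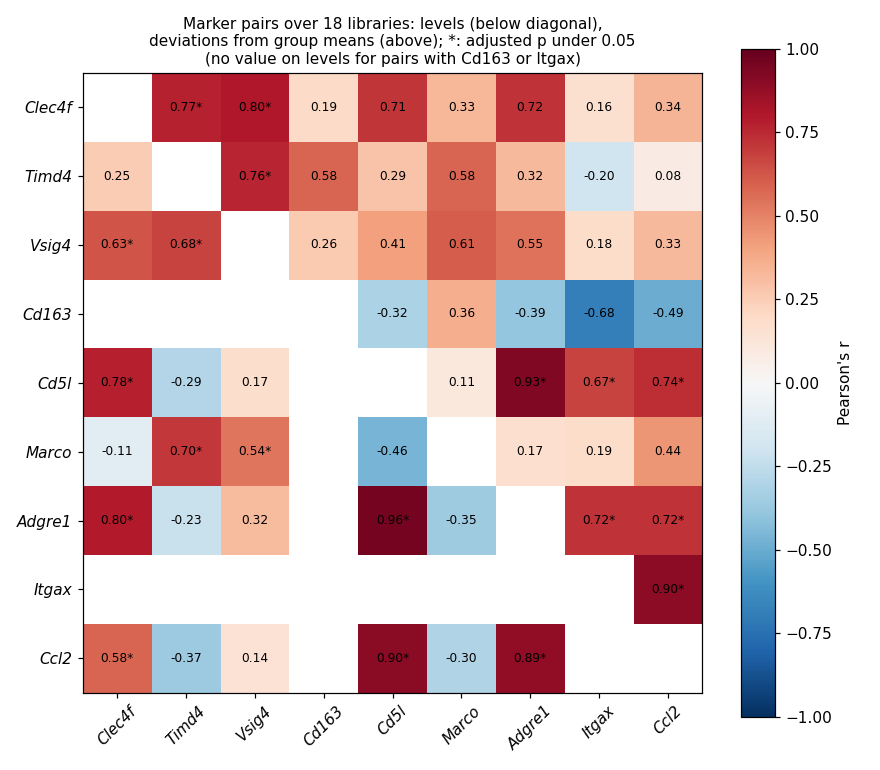
Pearson's r for each pair of markers over 18 libraries, on log2(RPKM + 1) levels below the diagonal (not shown for Cd163 and Itgax) and on deviations from the group means above it; an asterisk marks an adjusted p under 0.05 over 36 pairs. Within groups Cd5l, Adgre1, Itgax and Ccl2 form a block with r of 0.67 to 0.93, and Clec4f, Timd4 and Vsig4 another with r of 0.76 to 0.80.

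Among 8182 genes (8183 for the 4 rarest markers) with a mean of at least 2 RPKM, those closest in pattern to each marker were ranked. The ranking used Pearson r on levels over the same 18 libraries, as a description. For Cd163, Itgax and Ccl2 it carries the limit on levels given above. Clec4f was nearest to the folate receptor gene Folr2, another Kupffer cell gene (r = 0.94), then Cd300ld (0.88) and Cldn2 (0.84). Cd5l was nearest to the complement gene C1qb, Il18bp and the Fc receptor Fcgr4 (0.97 each). Adgre1 was nearest to Cyth4, Cybb and Mpeg1 (0.96 each), Itgax to Irf8, Ctss and S100a11 (0.97 each), and Ccl2 to Slfn2 (0.97), Rac2 and Serpina3g (0.96 each). The nearest genes of the other markers were mostly outside the macrophage lists. For Timd4 they were Cand1 (0.82) and the ficolin gene Fcna (0.80), itself on the resident list. Those of Cd163 included Hacl1 and Rabggtb (0.82 each), those of Marco were Ubqln1 (0.88), Ern1 (0.84) and Dicer1 (0.83), and those of Vsig4 were Rufy1, Mcfd2 (0.78 each) and Smim15 (0.75).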

How the data were processed

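The authors deposited RPKM values per RefSeq transcript for 18 libraries, made with TopHat 1.4.1 and Cufflinks 1.3.0 on mm10, per the submitters' processing notes; no read counts were used. Of 30582 rows, 30003 were named through RefSeq and 180 through GENCODE tables, and 399 were not named. The row with the highest mean stood for each gene. Genes reaching 1 RPKM in 3 or more libraries were fitted as log2(RPKM + 1) in limma 3.58.1 (R 4.3.3), with an intensity trend, in 1 model over 6 groups. Values were Benjamini-Hochberg adjusted over 10356 genes, and an adjusted p under 0.05 counted as passing. The scripts were checked on simulated data. Correlations used numpy 2.4.6 with 100000 permutations. Depth was estimated from the steps between low RPKM values and is approximate.

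The markers, gene lists and doubted libraries were chosen with earlier results of these data known. All 10 markers were to be named, each with its difference and test where its unadjusted p was under 0.05. From each list up to 4 passing genes with the smallest adjusted p were eligible, and up to 2 where none passed, along with the 3 genes most like each marker, of which not every one is reported here. Ratios between markers were added later. Cd68 was not analysed here, since the reference tables named no row for it. Alternatives were another pseudocount, other filters, scalings and samples, summed transcript rows, a replicate block and each library left out. Same-numbered libraries of 2 groups did not deviate together in every pair.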

Additional observations from a re-analysis of the deposited data

How the results depend on the processing

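No marker difference printed with its test changed sign under any setting that was run. Counts of markers passing, or of correlated pairs, held within 1.5 times in 137 of 152 values under other settings and in 222 of 234 with a library left out. These totals say little about stability. In most comparisons 0 markers passed in the main fit, and a count of 0 that stayed 0 was taken as held. For HF+Ex against LF+Ex, 0 passed with no filter, 1 with a mean of at least 5 RPKM (which leaves 4 markers), 5 with only those groups in the fit, 0 without HF+CR 1, LF+CR 1 and LF+Ex 1, which hold pancreas transcripts, and 5 without HF+CR 3 and LF 2, high in bile duct genes. With the replicate number as a block 1 passed there, Ccl2; same-numbered libraries share only a number, their deviations correlating at -0.24 to 0.32, and the block moved no other count by over 1.5 times. It brought Marco over both diets past the threshold (adjusted p = 0.0379). Over both diets 2 passed with a mean of at least 5 RPKM, 0 without the Ex groups and 0 with only the libraries that list Alb at 0; these last 2 settings were chosen after seeing the data. For HF+CR against LF+CR, 1 passed with median-of-ratios scaling and 1 with quantile normalization. With HF+CR 3 and LF 2 left out, 3 passed for HF against LF, 2 for HF+CR against HF and 1 for CR over both diets. With each library left out in turn the count ran from 0 to 1 for HF against LF, HF+CR against LF+CR and HF+CR against HF, from 0 to 5 for HF+Ex against LF+Ex, from 5 to 6 over both diets, and from 0 to 2 for CR over both diets; it was 0 throughout in the other comparisons. Correlated pairs numbered 18 to 24 with a library left out, 19 on levels over all libraries and 9 on deviations from group means. Apart from smaller fits, the cause of these changes was not tested. The share of all genes passing under each setting is not given, so whether a changed count is particular to the markers cannot be told. Low levels limit Itgax, Ccl2, Timd4 and Cd163, where the added 1 RPKM flattens differences.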
